A study of Mus musculus with 12 samples.

Results

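Granzymes and perforin, the proteins that cytotoxic lymphocytes release to kill other cells, were followed as a set of 9 genes through every annotated cell class of the tumours: Prf1, Nkg7, Gzma, Gzmk, Gzmb, Gzmc, Gzmd, Gzme and Gzmf. They were chosen by name, and all 9 were found among the 18574 genes of the tables of CD45-enriched cells and the 19369 genes of the tables of all tumour cells. The tumours came from 4T1, a mouse line of triple-negative mammary carcinoma, implanted into the mammary fat pad of female BALB/c mice, 9-11 weeks old. The clonal groups were lines grown from a single 4T1 cell each, named E, EM1, EM2, EM3 and M, which the submitters describe as covering epithelial, intermediate and mesenchymal states; the sixth group was the parental 4T1 line. The labels name no engineered allele and no drug. Each clone is 1 line, and 1 tumour per group was sequenced, as 1 library of total tumour cells (Total) and 1 of cells enriched for the leukocyte marker CD45 with magnetic beads (CD45). There are therefore no replicates, and every difference below lies between single tumours or between cell classes within a tumour.

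Killer lymphocytes keep these proteins in secretory granules and release them against a target cell at the immunological synapse. Perforin, encoded by Prf1, forms pores in the target's membrane, and granzymes, a family of serine proteases, pass through and cleave proteins inside the target. Granzyme A (Gzma) and granzyme K (Gzmk) cut after basic residues, granzyme B (Gzmb) cuts after aspartate and activates caspases, and Nkg7 is a granule membrane protein that takes part in granule release. Mice carry an expanded cluster next to Gzmb that holds Gzmc, Gzmd, Gzme and Gzmf, whose substrates are less well known.

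In the annotation of GRCm38, the 5 genes Gzmb (chr14:56258836-56262334), Gzmc (chr14:56231397-56241647), Gzmf (chr14:56205263-56211407), Gzmd (chr14:56129556-56132603) and Gzme (chr14:56117619-56120625) lie on the minus strand of chromosome 14 within 145 kb. Gzma (chr13:113093824-113100981) and Gzmk (chr13:113171630-113180965) are neighbours on chromosome 13, Prf1 (chr10:61297751-61304684) lies on chromosome 10 and Nkg7 (chr7:43437138-43438246) on chromosome 7. The promoters of the chromosome 14 cluster are printed because Gzmc to Gzmf were called higher together in the CD8 T cells of EM3 described below, while Gzmb was not. Each sequence is the 250 bases before the start site in RefSeq on GRCm38.p6, written 5′ to 3′ on the gene's strand, with matches to 4 short motifs in capitals. The start sites used for the promoters of Gzmc and Gzmd lie inside the gene bounds given above, and why they differ was not examined.
Gzmb, chr14:56262335-56262584, minus strand: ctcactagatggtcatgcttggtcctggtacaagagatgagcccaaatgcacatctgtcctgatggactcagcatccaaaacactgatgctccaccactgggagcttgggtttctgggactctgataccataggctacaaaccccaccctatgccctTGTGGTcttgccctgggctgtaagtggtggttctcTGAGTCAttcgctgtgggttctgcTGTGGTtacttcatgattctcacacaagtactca
Gzmc, chr14:56234658-56234907, minus strand: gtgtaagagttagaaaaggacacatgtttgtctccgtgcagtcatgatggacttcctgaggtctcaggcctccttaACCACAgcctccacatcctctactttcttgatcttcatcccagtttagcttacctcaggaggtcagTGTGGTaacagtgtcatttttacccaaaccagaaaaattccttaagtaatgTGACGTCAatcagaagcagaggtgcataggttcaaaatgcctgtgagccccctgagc
Gzmf, chr14:56211408-56211657, minus strand: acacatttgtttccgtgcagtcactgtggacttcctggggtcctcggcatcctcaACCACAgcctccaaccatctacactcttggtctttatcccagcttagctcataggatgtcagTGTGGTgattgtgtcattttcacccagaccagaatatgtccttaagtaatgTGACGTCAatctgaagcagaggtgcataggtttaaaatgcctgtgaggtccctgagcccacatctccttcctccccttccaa
Gzmd, chr14:56132594-56132843, minus strand: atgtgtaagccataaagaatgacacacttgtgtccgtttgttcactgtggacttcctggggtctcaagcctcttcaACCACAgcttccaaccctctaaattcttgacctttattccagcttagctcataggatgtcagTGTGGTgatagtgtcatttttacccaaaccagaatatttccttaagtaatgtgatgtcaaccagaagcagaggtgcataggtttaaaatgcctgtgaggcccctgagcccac
Gzme, chr14:56120626-56120875, minus strand: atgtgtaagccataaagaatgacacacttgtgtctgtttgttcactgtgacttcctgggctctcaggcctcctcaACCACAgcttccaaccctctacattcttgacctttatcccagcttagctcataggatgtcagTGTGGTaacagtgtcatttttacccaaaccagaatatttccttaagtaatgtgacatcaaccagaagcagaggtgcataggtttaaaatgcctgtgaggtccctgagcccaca

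The motifs, searched on both strands in the 250 bases before each start site, were TGTGGT, the core bound by RUNX factors (present in 14.0% of 32851 mouse promoters of the same length), TGANTCA for AP-1 (6.75%), AGGTGT for T-box factors (11.8%) and TGACGTCA, the cyclic AMP response element (1.55%). No capitals of different motifs overlap in the sequences shown. All 5 cluster promoters hold TGTGGT at 2 places, and it was also found in Gzma, Prf1 and Nkg7 but not in Gzmk. The AP-1 letters were found in Gzmb and in no other member. The cyclic AMP element was found in Gzmc and Gzmf, and the aligned 8 bases differ from it by C4T in Gzmd and by G5A in Gzme, counted from 1 at the 5′ end of the element. AGGTGT was found in Gzma, Gzmk, Prf1 and Nkg7 and in none of the 5 cluster genes. A match describes letters and says nothing of binding. Gzmd and Gzme are near-identical copies: their coding sequences share 93.3% of aligned bases and their promoters 94.8%. Gzmf shares 85.3% of coding bases with Gzme, 83.6% with Gzmd and 73.4% with Gzmc. How well the assay and the authors' counting separate Gzmd from Gzme was not tested, so the values of either are uncertain while their sum is less so. The same uncertainty holds for their joint detection in cells and their likeness over classes, given below.

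The 12 libraries held 6709 to 13467 cells and 28083101 to 122055131 unique molecular identifiers (UMIs, each 1 captured molecule). Levels are UMIs summed over the cells of a class and scaled to a class total of 1000000 (CPM); intervals are 95% and cover counting error only, although UMIs of 1 cell are not independent. Within a well no whole barcode was shared between libraries; barcodes shared in their first bases put the tumours into 4 capture wells: E with EM3, EM1 with EM2, M alone and the parental tumour alone. EM3 over E and EM1 over EM2 are thus contrasts within a well, and in M over E the well and the clone cannot be told apart. Cell classes are those of the authors' annotation, which was made on the same expression values, so a difference between classes is a description, and the class called Gzmb+ Cd8+ is named for a gene described here.

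Natural killer (NK) cells numbered 38 in the parental tumour, 49 in M, 68 in EM3, 87 in E, 131 in EM2 and 132 in EM1 in the CD45 libraries, and Gzmb+ Cd8+ T cells 8, 63, 311, 560, 252 and 687 in the same order; classes under 20 cells are given as counts only. The NK class carried its own markers Ncr1, Klre1, Klri2 and Eomes at 992 to 2325 CPM summed, the T cell markers Cd3d, Cd3e, Cd3g and Trac at 110.4 to 512 CPM, and Cd8a with Cd8b1 at 0 to 13.1 CPM. Granulocyte markers in the same class summed to 1116 to 4296 CPM, above the NK marker sum in EM3 (4296 against 1109 CPM) and M (2799 against 992). In the Gzmb+ Cd8+ class the T markers summed to 4325 to 6015 CPM and Cd8a with Cd8b1 to 1034 to 2202 CPM. Median depth was 1038 to 1792 UMIs per NK cell and 1134 to 2211 per Gzmb+ Cd8+ T cell. Because depth differed, shares of cells that combine genes were taken after thinning cells to 1000 UMIs. Cells under 1000 UMIs were left out of these shares. This kept 363 of 505 NK cells, 1504 of 1873 Gzmb+ Cd8+ T cells and 895 of 1266 Foxp3+ Cd4+ T cells.

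**Figure D1:**
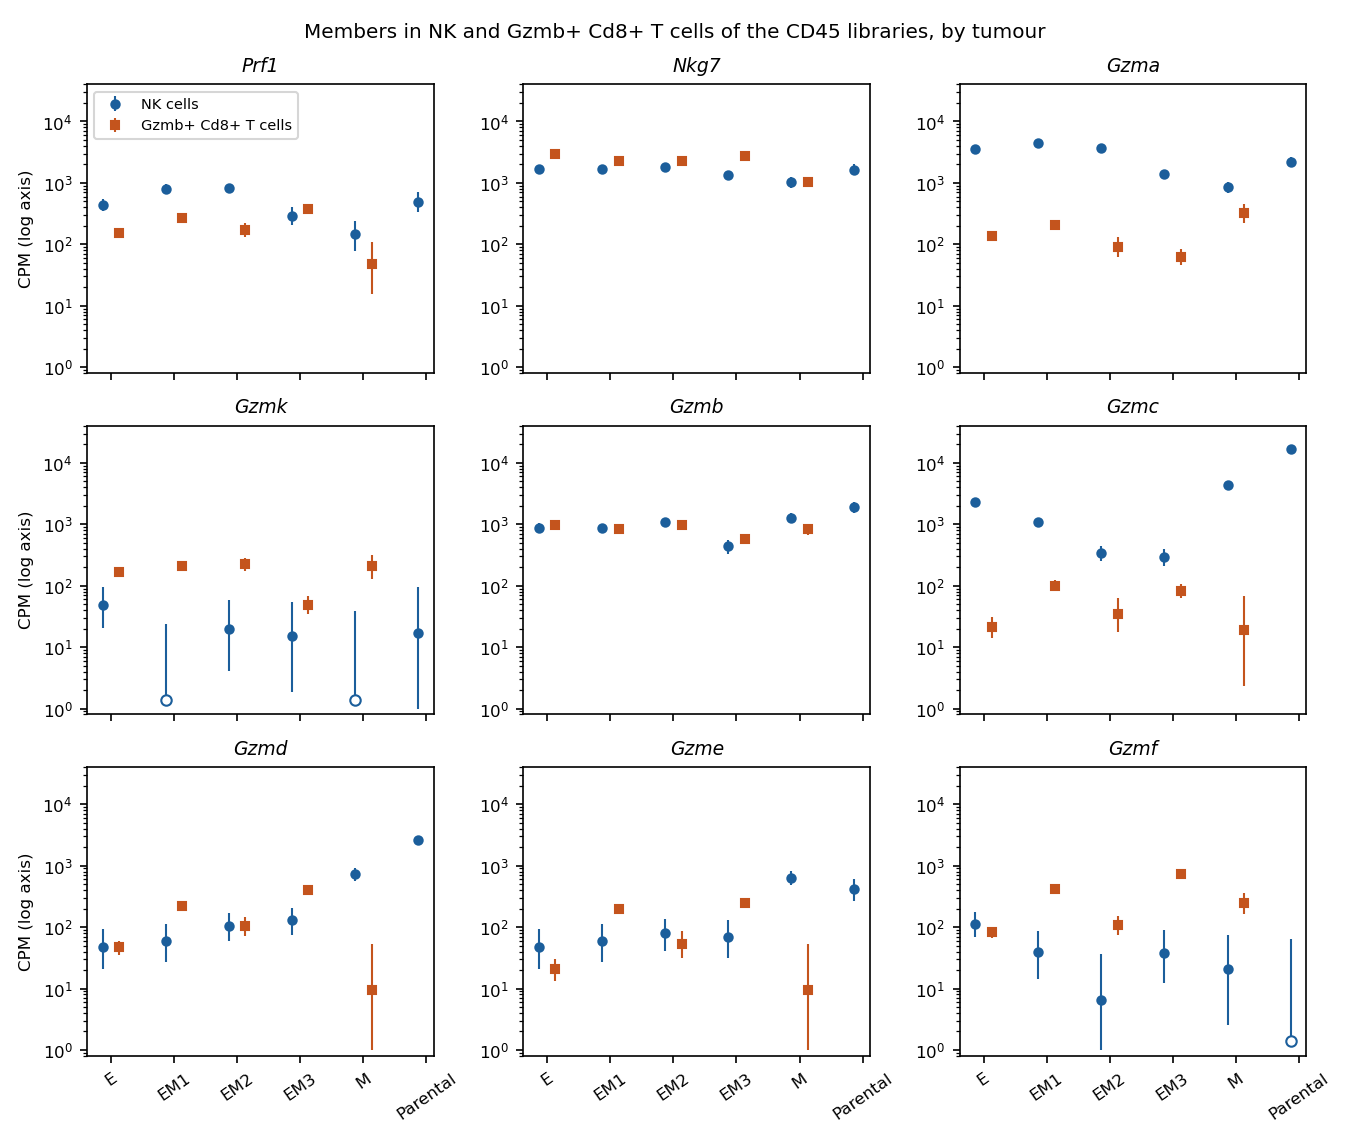
Level of each member (vertical axis, CPM, log scale) in NK cells (circles) and Gzmb+ Cd8+ T cells (squares) of the CD45 library of each tumour (horizontal axis). Bars are exact Poisson 95% intervals, drawn from 1 CPM where they reach lower, an open symbol at the foot of the axis marks a sum of 0, and the 8 parental Gzmb+ Cd8+ T cells are not drawn; Gzma lies above the CD8 T cells in NK cells of all 5 tumours with both classes, and Gzmc spans from 291 to 17076 CPM among NK cells.

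Prf1, the pore former, had its highest medians over tumours in NK cells and Gzmb+ Cd8+ T cells. Of the Prf1 UMIs of a CD45 library, NK cells held 8.02% in EM3 to 47.1% in EM2, and Gzmb+ Cd8+ T cells 9.23% in the parental tumour to 62.2% in EM3. NK cells had 815 CPM in EM2, 799 in EM1, 498 in the parental tumour, 443 in E, 291 in EM3 and 145 in M. EM1 and EM2 were highest and M was lowest, with an interval of 79.1 to 243 CPM that lay below those of E, EM1, EM2 and the parental tumour. In Gzmb+ Cd8+ T cells Prf1 had 379.9 CPM in EM3, 269.9 in EM1, 174 in EM2, 153 in E and 47.4 in M. Here EM3 was highest and M again lowest. The share of cells with a Prf1 UMI had the same ends in the CD8 class, from 7.94% of cells in M to 40.2% in EM3. Within tumours, Prf1 was higher in NK cells than in Gzmb+ Cd8+ T cells in E, EM1 and EM2, and the intervals overlapped in EM3 and M. The share of all genes at that rule was not counted, so nothing particular to Prf1 is read from it.

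Nkg7 was found in 65.8% to 82.4% of NK cells and 55.6% to 97.1% of Gzmb+ Cd8+ T cells, against 0.0873% to 3.67% of macrophages. The share reached 6.34% in B cells and 11.9% in dendritic cells. NK cells had 1801 CPM in EM2, 1711 in E, 1669 in EM1, 1648 in the parental tumour, 1353 in EM3 and 1033 in M, a spread of 1.74-fold over tumours. In Gzmb+ Cd8+ T cells Nkg7 had 2940.3 CPM in E, 2696 in EM3, 2307 in EM1, 2271 in EM2 and 1053 in M. M stood below the other 4 tumours in the CD8 class, and its share of cells with a Nkg7 UMI was 55.6% (42.5% to 68.1%, exact binomial), against 95.2% (93.1% to 96.8%) in E. Nkg7 was higher in Gzmb+ Cd8+ T cells than in NK cells in 4 of 5 tumours, with overlap in M.

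Gzma, a tryptase, had its highest median in NK cells. Its NK levels were 4403 CPM in EM1, 3695 in EM2, 3499 in E, 2214 in the parental tumour, 1407 in EM3 and 847 in M. Both tumours of the EM1 and EM2 well and E lay high, the parental tumour lay between, and EM3 and M were lowest. In NK cells of the parental tumour 1 cell held 56.6% of the Gzma UMIs, and the sum without it was 1019 CPM. The share of NK cells with a Gzma UMI was also lowest in M, at 34.7%, and highest in EM2, at 71.0%. Gzmb+ Cd8+ T cells had 322 CPM in M, 208 in EM1, 138 in E, 91.6 in EM2 and 63.1 in EM3, from 2.57% to 4.76% of cells. NK cells exceeded them in 5 of 5 tumours, which held for Gzma and Gzmc among the 9 members and for 1.15% of the 6582 genes with at least 50 CPM in either class of any tumour. With NK cells taken from the finer annotation column the number of such members was 0, and without the richest cell it was 1, Gzma.

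Gzmk, the other tryptase, had the opposite distribution. NK cells had 47.9 CPM in E, 19.7 in EM2, 17.2 in the parental tumour, 15.3 in EM3, 0 in EM1 and 0 in M; sums of 0 allow up to 3 UMIs, which is 19.5 and 31.0 CPM in EM1 and M (upper ends of the exact Poisson interval 24.0 and 38.1). In Gzmb+ Cd8+ T cells Gzmk had 224 CPM in EM2, 209 in M, 208 in EM1, 165 in E and 48.9 in EM3, with EM3 below the other 4. The 8 parental cells of the class held 27 Gzmb, 33 Nkg7, 6 Prf1, 2 Gzma and 2 Gzmk UMIs and none of Gzmc to Gzmf. Lef1+ Cd8+ T cells, named by the authors for a factor of naive and memory cells, had 251 CPM in EM3, 250.3 in E, 80.2 in EM1, 69.0 in EM2, 67.7 in the parental tumour and 57.7 in M. EM3 and E were the high tumours there and nearly level, while EM3 had the lowest Gzmk of the Gzmb+ class. Gzmk, Gzmf and Nkg7 were each higher in Gzmb+ Cd8+ T cells than in NK cells in 4 of 5 tumours, as were 2.46% of all genes compared.

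Gzmb, the protease that activates caspases, did not separate these classes. NK cells had 1888 CPM in the parental tumour, 1271 in M, 1104 in EM2, 885 in E, 857 in EM1 and 436 in EM3, with EM3 lowest and the parental tumour highest, where 1 cell held 47.3% of the UMIs and the others 1055 CPM. Gzmb+ Cd8+ T cells had 991 CPM in E, 967 in EM2, 838 in EM1, 835 in M and 574 in EM3. Intervals of both classes overlapped in 4 of 5 tumours, and NK cells were higher in M. The share of all genes with such overlap was not counted, so nothing particular to Gzmb is read from it. In the CD8 class of M, 1 cell held as many of the 88 Gzmb UMIs as the other cells together, and without it the sum was 438 CPM. Gzmb UMIs were found in 32.6% to 48.1% of NK cells and 25.4% to 42.3% of Gzmb+ Cd8+ T cells. In macrophages, taken as the background of free RNA, the share was 0.277% to 0.961%, at median depths of 5131 to 7690 UMIs. Macrophages had the lowest median Gzmb of the 14 classes. The share reached 2.38% in B cells and 7.72% in dendritic cells, so this background is a low one.

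Gzmc ranged widely among NK cells, with 17076 CPM in the parental tumour, 4318 in M, 2321 in E, 1097 in EM1, 335 in EM2 and 291 in EM3. The parental tumour and M were highest and EM2 and EM3 lowest. In 4 tumours 1 cell held most of these UMIs: 73.9% in the parental tumour, 76.3% in EM3, 74.6% in EM1 and 59.3% in M. In E and EM2 the richest cell held 47.9% and 23.5%. Without the richest cell the parental tumour and M were still highest, at 4990.5 and 1858 CPM. Leaving out 1 cell is a weak check here. Of the UMIs of Gzmc to Gzmf together, the richest 5 NK cells held 65.0% in EM2, 85.2% in M and 92.7% to 99.3% in the other tumours. The order of tumours thus rests on few cells. The share of NK cells with a Gzmc UMI ranged from 9.85% to 32.7%, highest in M. Gzmb+ Cd8+ T cells had 101 CPM in EM1, 82.4 in EM3, 34.7 in EM2, 21.4 in E and 19.0 in M.

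**Figure D2:**
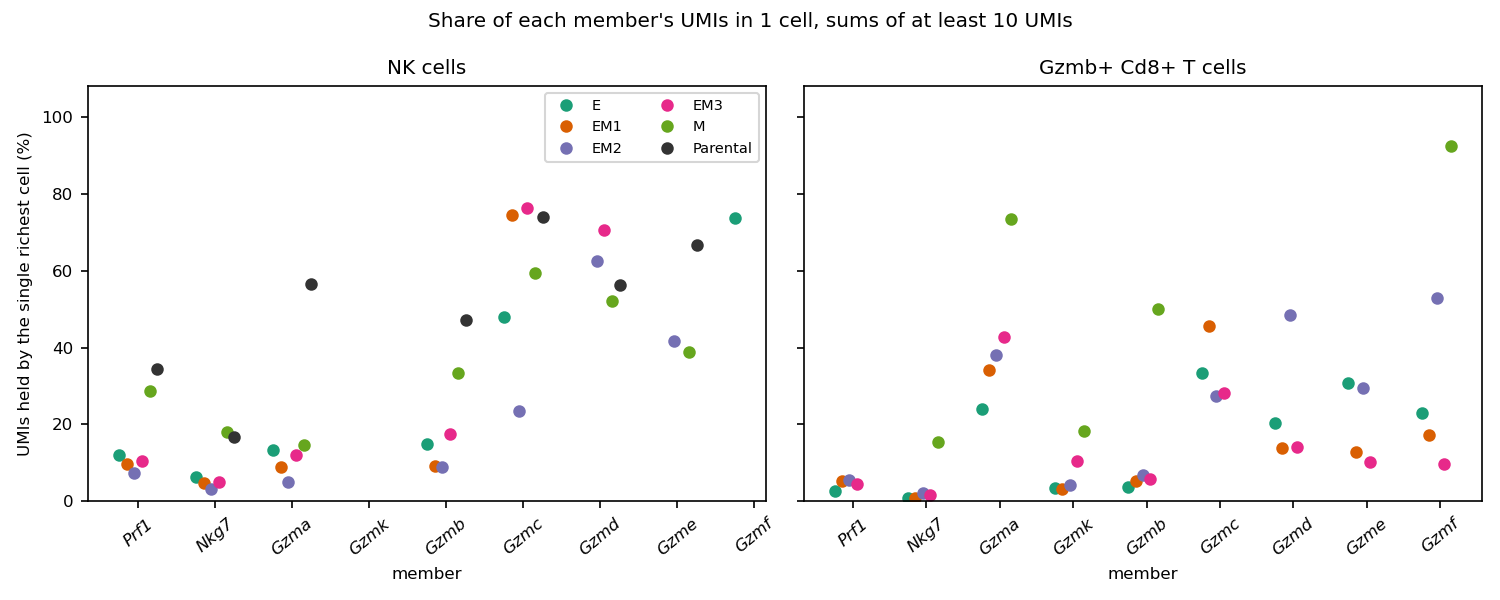
Share of a member's UMIs held by the single richest cell (vertical axis, percent) for each member (horizontal axis) in NK cells (left) and Gzmb+ Cd8+ T cells (right), coloured by tumour, for sums of at least 10 UMIs. In NK cells 1 cell held up to 76.3% of Gzmc UMIs, and Nkg7 sits below Gzmc wherever both are shown.

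Gzmd and Gzme, the near-identical pair, were low in NK cells of 4 tumours and high in 2. Gzmd had 2591 CPM in the parental tumour, 733 in M, 130.0 in EM3, 105 in EM2, 58.4 in EM1 and 47.9 in E, and Gzme had 640.5 CPM in M, 412 in the parental tumour, 78.9 in EM2, 68.8 in EM3, 58.4 in EM1 and 47.9 in E. M and the parental tumour stood apart in both, from 5 and 3 cells with a Gzmd UMI, of which 1 held 52.1% and 56.3% of the UMIs. In Gzmb+ Cd8+ T cells the order was different: Gzmd had 399 CPM in EM3, 222 in EM1, 104 in EM2, 46.7 in E and 9.48 in M, and Gzme had 249.8 CPM in EM3, 196 in EM1, 53.7 in EM2, 20.6 in E and 9.48 in M. EM3 and EM1 were the high tumours of the CD8 class and M was at 1 UMI of each.

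Gzmf had its highest median in Gzmb+ Cd8+ T cells. Gzmb+ Cd8+ T cells had 722 CPM in EM3, 409.8 in EM1, 247 in M, 107 in EM2 and 82.3 in E. EM3 was highest, EM1 followed, and in M 1 cell held 92.3% of the 26 UMIs, which left 19.3 CPM without it. Cells with a Gzmf UMI made up 15.8% of the class in EM3 (11.9% to 20.3%), 7.42% in EM1, 4.76% in M, 3.39% in E and 2.38% in EM2. NK cells had 0 CPM in the parental tumour, 6.57 in EM2, 20.7 in M, 38.2 in EM3, 39.0 in EM1 and 114 in E; the sum of 0 allows up to 3 UMIs, or 51.5 CPM, with an exact Poisson upper end of 63.3.

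Beyond these classes, regulatory T cells (Foxp3+ Cd4+) carried Gzmb. Their Gzmb was 819 CPM in E, 813 in EM2, 787 in EM3, 704 in EM1, 699 in the parental tumour and 625 in M, a spread of 1.31-fold. Foxp3, Il2ra and Ikzf2 summed to 5993 to 7106 CPM there. The share of cells with a Gzmb UMI was 23.6% to 31.1%, against 1.79% to 3.04% of Cd44+ Cd4+ T cells, at median depths of 983 to 1584 and 930.0 to 1467 UMIs. Gzmb was higher in Foxp3+ than in Cd44+ Cd4+ T cells in 6 of 6 tumours, as were 1.68% of the genes compared. Against Gzmb+ Cd8+ T cells the intervals of Gzmb overlapped in 3 of 5 tumours, with Foxp3+ cells higher in EM3 and lower in E. How many of all genes overlapped in this way was not counted. Prf1 reached at most 23.5 CPM, Nkg7 ranged from 40.7 to 165 CPM, and no Gzme UMI was found in 1266 Foxp3+ cells. In E, Foxp3+ cells had Gzmc at 101 CPM (71.0 to 140.3) against 21.4 in its Gzmb+ Cd8+ T cells, and Gzma at 64.7 CPM, but 1 cell held all 36 Gzmc UMIs and 1 cell 22 of the 23 Gzma UMIs. Gzma, Gzmf, Gzmk and Nkg7 were lower than in Gzmb+ Cd8+ T cells in 5 of 5 tumours (2.32% of genes), and Gzmd, Gzme and Prf1 in 4 of 5 (4.65%).

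In Lef1+ Cd8+ T cells Gzmb had 226 CPM in the parental tumour, 230.4 in EM3, 448 in EM1, 453 in E, 466 in EM2 and 577 in M; the parental value was 10 UMIs of 1 cell. The class had Nkg7 at 587 to 956 CPM, Prf1 at 0 to 69.0 CPM, and Gzmd, Gzme and Gzmf at most 8.62. Gzmf was higher in the Gzmb+ than in the Lef1+ class in 5 of 5 tumours, which held for 0.559% of genes compared. Gzmb, Gzmd and Nkg7 were higher in 4 of 5, as were 1.82% of genes. Gzmk was higher in EM1, EM2 and M and lower in E and EM3, and the share of all genes with such a split was not counted. Dividing T cells (Mki67+), present in 4 tumours with at least 20 cells, had Gzmb at 590.0 to 1149 CPM and Nkg7 at 633 to 1494 CPM. The class named Trdc+ DN, for the constant gene of the delta T cell receptor, had Gzmb at 235 CPM in EM2, 1184 in EM1 and 1572 in M from 22 to 25 cells each, with no Prf1 UMI and Nkg7 at 0, 0 and 72.6 CPM. Of the EM1 Gzmb UMIs in that class 1 cell held 66.7%. Foxp3, Il2ra and Ikzf2 summed to 1783 to 6362 CPM in the class, with Foxp3 at 0 in every tumour, and whether this bears on its Gzmb was not tested. Cd44- Cd4+ T cells had Gzmb at 1.86 to 65.4 CPM and Cd44+ Cd4+ T cells had Gzmk at 7.64 to 57.7 CPM.

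Ordered by the median over tumours, Gzma ran from NK cells (2857 CPM) to dividing T cells (276), Gzmb+ Cd8+ (138) and Lef1+ Cd8+ T cells (115), and the ranges of the last 3 overlapped. For Gzmb the order was Trdc+ DN (1184), NK (995), dividing T (865), Gzmb+ Cd8+ (838) and Foxp3+ Cd4+ (745), all with overlapping ranges. The Trdc+ DN median covers 3 tumours and is the EM1 value, which was 417 CPM without its richest cell, so the first place rests on 1 cell. Prf1 went from NK (470.2) to Gzmb+ Cd8+ (174) and dividing T cells (92.3), and Nkg7 from Gzmb+ Cd8+ (2307) to NK (1658), dividing T (1148) and Lef1+ Cd8+ (705). In macrophages, granulocytes and B cells, Gzmb was 0.353 to 1.46 CPM, 2.07 to 6.99 CPM and 0 to 17.6 CPM. Dendritic cells had 1.45 to 37.5 CPM. T and NK classes together held 86.2% to 92.0% of the Prf1 UMIs of a CD45 library. For Gzmb the share was 64.8% in M, 74.3% in the parental tumour and up to 92.0% in EM1, with a median of 89.2%. The class named T/Myeloid Hybrid, outside that share, had Gzmb at 246 to 2580 CPM over 5 tumours, highest in M from 25 cells. In M, single cells of it held 90, 53, 52, 38 and 35 of the library's 952 Gzmb UMIs. In the parental tumour 1 such cell held 59 of 404.

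**Figure D3:**
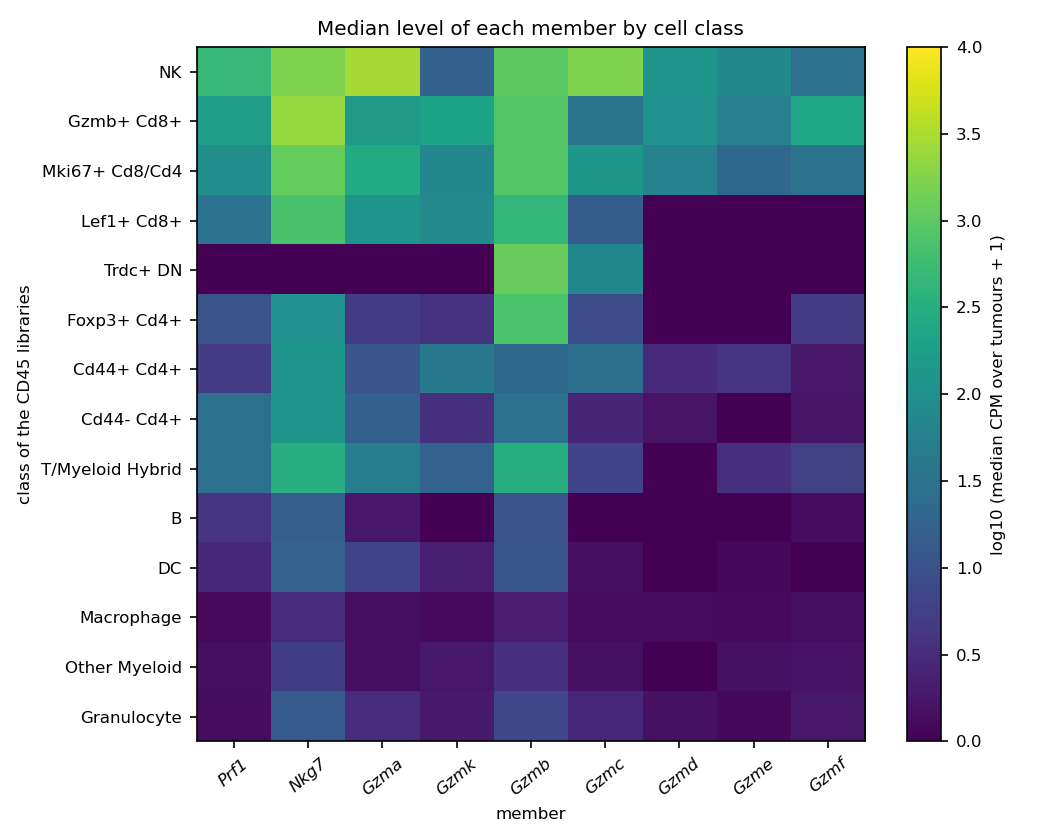
Median over tumours of each member's CPM (colour, log10 of the median + 1) by annotated class of the CD45 libraries. Gzmb is spread over NK, Gzmb+ Cd8+, Foxp3+ Cd4+, dividing and Trdc+ DN cells, while Gzma, Gzmc and Prf1 have their highest median in NK cells and Gzmf, Gzmk and Nkg7 in Gzmb+ Cd8+ T cells.

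Between tumours, a gene was called different when its log2 ratio of (CPM + 10) was at least 1 in size and the intervals did not overlap; this compares 2 tumours, not 2 conditions, and has no replicate check. In NK cells of M over E, 4 of the 8 members with at least 50 CPM were called, against 2.15% of the 5491 genes tested, 0.947% higher and 1.2% lower. Gzma was lower in M, with a log2 ratio of −2.03 (−2.48 to −1.61) as was Prf1 with −1.55 (−2.67 to −0.50), while Gzmd was higher with 3.68 (2.48 to 4.93) and Gzme with 3.49 (2.26 to 4.76). Gzmb (0.52, 0.02 to 1.01), Gzmc (0.89, 0.61 to 1.18) and Nkg7 (−0.72, −1.18 to −0.27) had intervals that did not overlap but stayed below the fold used. Gzmf had a log2 ratio of −2.01 with overlapping intervals. In NK cells gated by markers in the Total libraries Prf1 was not called, and Gzmb, Gzmc and Gzmf were called higher beside Gzmd and Gzme. The sign of Gzmf there was thus opposite to that in the annotated class. The directions were mixed, and the members' median of −0.10 was close to the 0.08 of all genes. NK markers summed to 1585 CPM in E and 992 in M, T markers to 335 and 393, and granulocyte markers to 1429.6 and 2799; their part in these ratios was not tested.

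In NK cells of EM3 over E, which shared a well, 3 of 8 members were called, all lower, against 1.58% of the 5189 genes tested, 0.925% higher and 0.655% lower. Gzmc had a log2 ratio of −2.96 (−3.58 to −2.37), Gzma −1.31 (−1.64 to −0.98) and Gzmb −1.01 (−1.63 to −0.40). Prf1 (−0.59, −1.39 to 0.19) and Nkg7 (−0.34, −0.72 to 0.05) had overlapping intervals. So did Gzmf (−1.36), and Gzmd (1.27) and Gzme (0.45), which went the other way. The Gzmb call lay at the edge of the fold used and was lost with doublets kept (−0.9998) and with at least 650 genes per cell (−0.997). It was also lost with the mean of single-cell CPM (−0.73) and with the finer annotation column. In NK cells gated by markers in the Total libraries Gzmc was not called, Gzmd was called higher, and Gzma, Gzmb, Gzmf and Prf1 lower. The median over the members was −0.80, against 0.01 for all genes. Granulocyte markers in the NK class summed to 1429.6 CPM in E and 4296 in EM3 and NK markers to 1585 and 1109. T markers summed to 335 and 512 and macrophage markers to 502 and 841. Whether these markers bear on the ratios was not tested. The share of NK cells with a Gzma UMI was 45.6% in EM3 (33.5% to 58.1%) and 60.9% in E (49.9% to 71.2%), with overlapping intervals, at median depths of 1778 and 1702 UMIs.

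The pair of EM1 over EM2 was compared after the data had been seen. In NK cells 1 of 7 members was called, Gzmc with 1.68 (1.07 to 2.31), against 0.855% of the 5148 genes tested, 0.486% higher and 0.369% lower. None was called without the richest cell of each tumour, or with the mean of single-cell CPM. Gzma (0.25, 0.02 to 0.48) and Prf1 (−0.03, −0.54 to 0.48) were close in both tumours. In the NK class plasmacytoid dendritic cell markers summed to 117 CPM in EM1 and 19.7 in EM2, plasma cell markers to 71.4 and 0, NK markers to 2325 and 2064, T markers to 110.4 and 171 and granulocyte markers to 1325 and 1118, and Cd4 was at 39.0 and 6.57; their part in the Gzmc ratio was not tested.

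In Gzmb+ Cd8+ T cells the contrast of EM3 over E was the broadest: 7 of 9 members were called, against 1.24% of the 5088 genes tested, 0.806% higher and 0.432% lower. Gzme had a log2 ratio of 3.09 (2.49 to 3.67), Gzmf 2.99 (2.62 to 3.36), Gzmd 2.85 (2.38 to 3.32), Gzmc 1.56 (0.84 to 2.26) and Prf1 1.26 (0.90 to 1.62), all higher in EM3. Gzma (−1.02, −1.58 to −0.45) and Gzmk (−1.57, −2.16 to −0.99) were lower. Gzmb was lower by less than the fold used, at −0.78 (−0.99 to −0.56), and Nkg7 was nearly level at −0.12 (−0.23 to −0.02). The 4 cluster genes whose promoters are printed beside that of Gzmb were called higher while Gzmb itself was not called and had a negative ratio. The median over members was 1.26, against −0.01 for all genes, and all 7 calls remained without the richest cell of each member. With the mean of single-cell CPM Gzma was not called. CD8 T cells gated by markers in the CD45 libraries lost the calls of Prf1 and Gzmk. The same gate on Total cells lost those of Gzmc, Prf1 and Gzmk and called Gzmb lower. Within the class Cd4 stood at 83.9 CPM in E and 339 in EM3, granulocyte markers at 1138 and 1662 and macrophage markers at 398 and 617. NK markers stood at 456 and 394 and CD8 markers at 1961 and 1800.2. The part of these markers in the ratios was not tested.

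EM1 over EM2 in the same class had 5 of 9 members called against 1.33% of the 5262 genes tested, 0.779% higher and 0.551% lower. Gzmf had 1.84 (1.24 to 2.46), Gzme 1.69 (0.89 to 2.52), Gzmc 1.30 (0.34 to 2.29), Gzma 1.10 (0.42 to 1.81) and Gzmd 1.02 (0.37 to 1.69), all higher in EM1. Without the richest cell Gzmc was no longer called and the other 4 were; Gzmd was not called with at least 650 genes per cell, nor Gzma with the mean of single-cell CPM. Gzmb (−0.20, −0.47 to 0.06), Gzmk (−0.11, −0.63 to 0.43) and Nkg7 (0.02, −0.14 to 0.19) had overlapping intervals, and Prf1 (0.61, 0.07 to 1.16) stayed below the fold. With CD8 T cells taken by markers in place of the annotation, 2 members were called in the CD45 libraries and 3 in the Total libraries, Gzme and Gzmf in both. The share of all genes called with these gates was not counted. Cd4 in the class stood at 294 CPM in EM1 and 180.1 in EM2, NK markers at 389 and 278 and regulatory T markers at 863 and 607; their part in the ratios was not tested.

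M over E rested on 63 cells of M. Nkg7 (−1.47, −1.80 to −1.16) and Prf1 (−1.50, −2.87 to −0.23) were lower in M, and Gzmf (1.47, 0.64 to 2.26) and Gzma (1.17, 0.46 to 1.85) higher, 4 of 6 members against 6.63% of the 5403 genes tested, 3.65% higher and 2.98% lower. Each higher call rested on 1 cell: without the richest cell the log2 ratios were −1.32 for Gzmf and −0.20 for Gzma, both with the opposite sign. Gzmb was level at −0.25 (−0.64 to 0.13) and was called lower, at −1.11, without its richest cell. CD8 T cells gated by markers kept the lower calls of Prf1 and Nkg7 in both kinds of library, but neither Gzma nor Gzmf was called in the CD45 libraries, and Gzma was called lower in the Total libraries. That gate on Total cells also called Gzmd, Gzme and Gzmf higher in M and Gzmk lower. The CD8 markers of the class summed to 1961 CPM in E and 1034 in M, NK markers to 456 and 123, and T markers to 5242 and 4325. Granulocyte markers summed to 1138 and 1717, macrophage markers to 398 and 266, and Cd4 was at 83.9 and 28.5. The part of these markers in the ratios was not tested.

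The rest of the granule pathway, a list of 33 genes for storage, release, inhibitors, transcription factors and cytokine receptors, was read by the same rule. In NK cells 1 of 27 tested genes was called in M over E, Tbx21, a T-box factor of NK and effector T cells, with 207 against 508 CPM, where 2.15% of all genes were called; none of 26 was called in EM3 over E (all genes 1.58%) and none of 25 in EM1 over EM2 (0.855%). In Gzmb+ Cd8+ T cells, 2 of 28 were called in EM3 over E, against 1.24% of all genes, both higher: Serpinb9b, a serpin of the family that inhibits granzymes, with 100.4 against 11.1 CPM, and the interleukin-12 receptor chain Il12rb2 with 437 against 213 CPM. M over E had 4 of 28, against 6.63% of all genes, with Serpinb9b higher (133 against 11.1 CPM) and 3 transcription factors lower: Eomes (37.9 against 220.1 CPM), Zeb2 (133 against 542 CPM) and Prdm1 (9.48 against 68.1 CPM). EM1 over EM2 had none of 27, against 1.33%. The counts are small, and nothing particular to the list is read from them. No exocytosis gene of the list, such as Unc13d or Rab27a, was called. M over E and EM3 over E share the tumour E.

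Single cells combined the members in different ways. Pairs were counted in cells thinned to 1000 UMIs and set against the number expected if both genes fell independently within each tumour. Among 363 NK cells, Gzma and Gzmb were found together in 86 cells against 65.7 (1.31 times, 1.05 to 1.62), Gzma and Prf1 in 78 cells against 55.4 (1.41 times, 1.11 to 1.76), and Gzmb and Prf1 in 50 cells against 34.5 (1.45 times, 1.08 to 1.91). All 3 pairs exceeded the expected number in 6 of 6 tumours. Gzmc was with Gzmb in 40 cells against 22.2 (1.80 times, 1.29 to 2.46), and with Gzma in 24 cells against 29.9 (0.803 times, 0.514 to 1.19), whose interval includes 1. Gzmd and Gzme were together in 11 cells against 0.935 (11.8 times, 5.87 to 21.0), and Gzmc and Gzmd in 13 cells against 3.43 (3.79 times, 2.02 to 6.49). Nkg7, present in most NK cells, was near the expected number with Gzma (1.08 times), Gzmb (1.09) and Prf1 (1.05).

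Among 1504 Gzmb+ Cd8+ T cells of 5 tumours, the cluster genes were found together more often than expected. Gzmd and Gzme shared 44 cells against 3.73 (11.8 times, 8.57 to 15.8), Gzmc and Gzmf 25 cells against 3.97 (6.30 times, 4.08 to 9.31), and Gzmd and Gzmf 31 cells against 5.62 (5.52 times, 3.75 to 7.83). These pairs were above the expected number in 4, 2 and 3 of 5 tumours. How far the near-identity of Gzmd and Gzme bears on their joint count was not tested. Gzmd and Gzmk shared 0 cells against 5.72 (ratio 0, up to 0.644), and Gzme and Gzmk 1 cell against 5.89 (0.170 times, 0.00430 to 0.946); for Gzmf and Gzmk the count was 7 cells against 9.64 (0.726 times, 0.292 to 1.50), which includes 1. Gzmb was found with Gzmf in 68 cells against 27.4 (2.48 times, 1.93 to 3.15) and with Prf1 in 102 cells against 77.1 (1.32 times, 1.08 to 1.61), in 5 of 5 tumours each. Gzma was with Gzmb in 36 cells against 15.4 (2.33 times, 1.63 to 3.23) and with Gzmk in 16 cells against 5.90 (2.71 times, 1.55 to 4.41), while Gzma and Prf1 were at 7 cells against 9.21 (0.760 times, 0.306 to 1.57). The difference of that pair from NK cells was not tested.

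**Figure D4:**
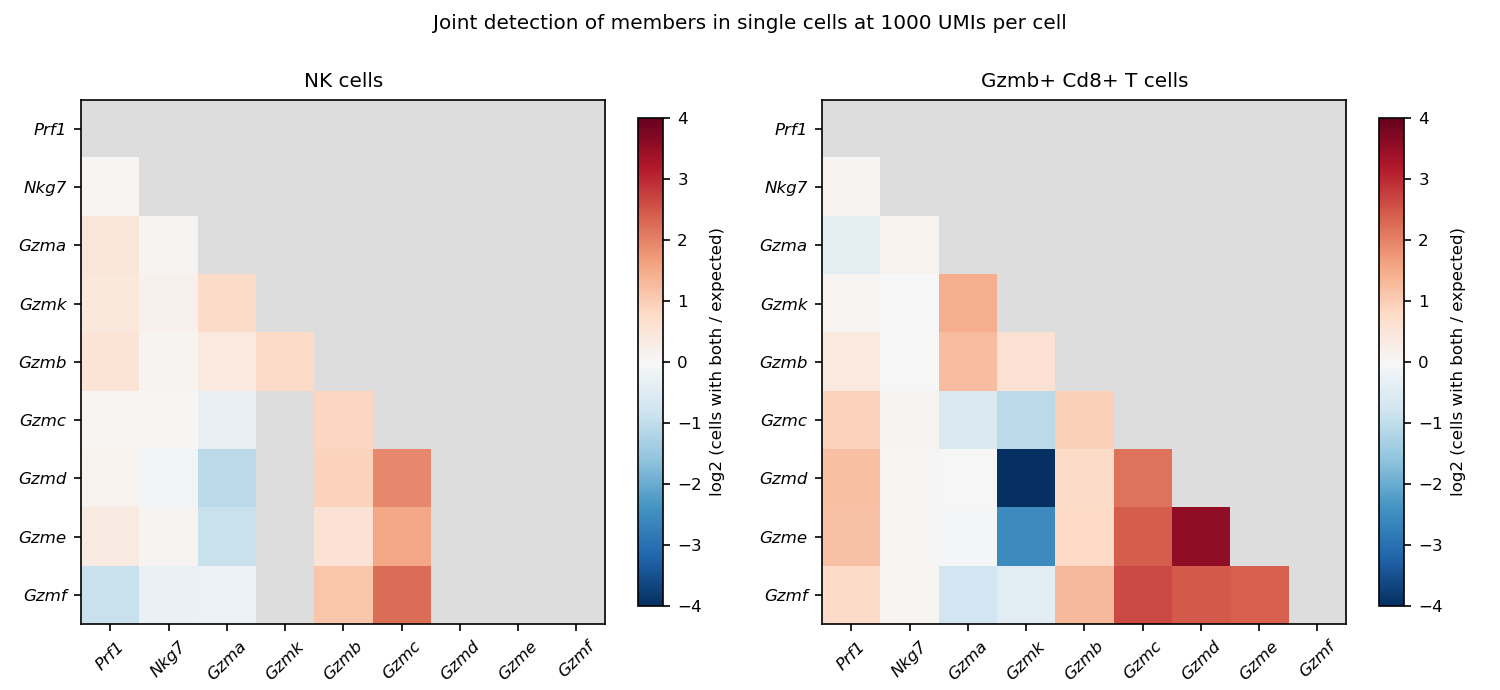
Log2 of the number of cells with both members over the number expected within tumours (colour), for every pair in NK cells and in Gzmb+ Cd8+ T cells thinned to 1000 UMIs. Grey marks pairs with under 1 cell expected and a ratio of 0 is drawn at −4; Gzmc to Gzmf form a block of high ratios in Gzmb+ Cd8+ T cells, and Gzmk is low with Gzmd and Gzme.

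A cell with 3 or more members was found in 25.4% to 48.6% of NK cells per tumour, 5.26% to 23.9% of Gzmb+ Cd8+ cells, 0% to 7.81% of Lef1+ Cd8+ cells and 0% to 1.94% of Foxp3+ Cd4+ cells, against 0 of thinned macrophages. Without thinning the first 2 ranges were 36.8% to 56.5% and 9.52% to 32.5%. The commonest combinations of NK cells were Nkg7 alone (16.8%), Gzma with Nkg7 (13.5%), no member (11.8%), Gzma with Gzmb and Nkg7 (7.16%) and those 3 with Prf1 (6.89%). Gzmb+ Cd8+ cells had Nkg7 alone (41.9%), Gzmb with Nkg7 (11.1%), no member (8.71%), Prf1 with Nkg7 (7.71%) and Gzmk with Nkg7 (3.92%). Foxp3+ Cd4+ cells had no member (70.1%), Gzmb alone (20.6%) or Nkg7 alone (3.69%); Gzmb and Nkg7 together were in 28 cells against 16.1 (1.74 times, 1.16 to 2.51). In Lef1+ Cd8+ cells no member (41.5%) and Nkg7 alone (29.1%) led, and Gzma and Gzmb were together in 20 cells against 7.05 (2.84 times, 1.73 to 4.38). At 1000 UMIs a missing gene may be an uncaptured one.

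The higher Gzmd, Gzme and Gzmf of EM1 and EM3 lay in a minority of Gzmb+ Cd8+ T cells. Cells with at least 2 UMIs of Gzmc to Gzmf made up 17.0% of the class in EM3, 8.44% in EM1, 5.16% in EM2, 3.04% in E and 1.59% in M. No single cell held most of them in EM3 (8.77%) or EM1 (10.5%). Cells with at least 2 UMIs of Gzmd to Gzmf, 57 in EM1 and 50 in EM3, were set against those with none, 617 and 244. Gzmb was 1974 against 649.8 CPM in EM1 and 1549 against 336 in EM3, Prf1 was 643 against 219 CPM in EM1 and 791 against 269.9 in EM3, and the interleukin-2 receptor chain Il2ra was 579 against 122 CPM in EM1 and 396 against 154 in EM3. Serpinb9b was 109 against 16.5 CPM in EM1 and 342 against 46.1 in EM3, and Gzmk was the other way, 109 against 225 CPM in EM1 and 6.71 against 63.2 in EM3. Among the 33 pathway genes and 5 other members read here, these 5 had intervals apart in the same direction in both tumours, 4 higher and 1 lower, as did 0.7% and 0.307% of all genes. The cells with Gzmd to Gzmf were also deeper, which CPM scales but which helps a cell to reach 2 UMIs: cells with at least 2 UMIs of Gzmc to Gzmf had a median of 1754 UMIs in EM1 against 1128, and 2537 in EM3 against 2135.

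**Figure D5:**
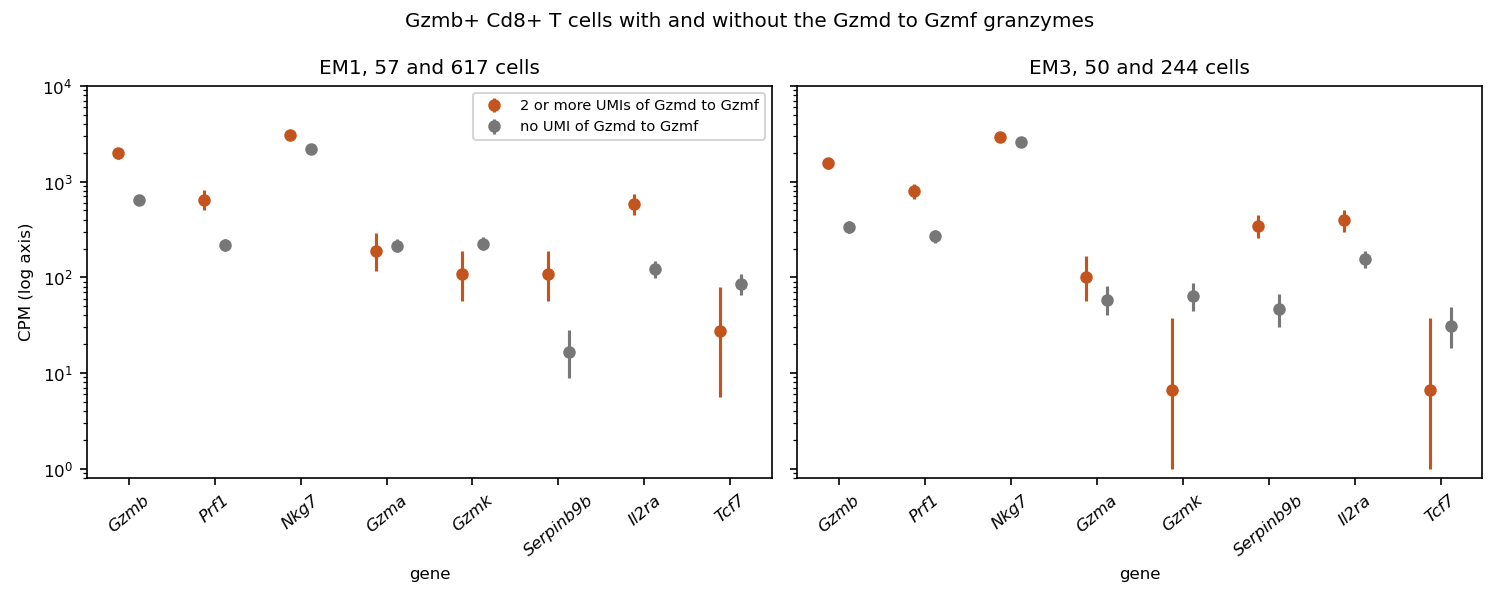
CPM (vertical axis, log scale) of genes in Gzmb+ Cd8+ T cells of EM1 and EM3 with at least 2 UMIs of Gzmd to Gzmf and in those with none, with exact Poisson 95% intervals, drawn from 1 CPM where they reach lower. Gzmb, Prf1, Il2ra and Serpinb9b lie higher in the cells with Gzmd to Gzmf in both tumours, and Gzmk lower.

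The Total libraries, whose annotation has a single T/NK class of 708 to 3017 cells, gave a second reading of each tumour. That class held 59.6% to 96.1% of a library's Prf1 UMIs, lowest in the parental tumour. Its lowest shares were 17.1% for Gzmf, 41.0% for Gzme and 45.9% for Gzmk, with medians of 89.6%, 84.6% and 84.8%. Gzmc there had 2334 CPM in the parental tumour, 2091 in M, 876 in EM2, 639.6 in EM3, 492 in E and 221 in EM1, and Gzmf had 23.6 CPM in the parental tumour, 91.8 in EM2, 122 in E, 273 in EM1, 648 in EM3 and 1300.4 in M. Against all T and NK cells of the CD45 library of the same tumour, both were at least 2-fold higher, on the log2(CPM + 10) scale, in the Total library in 6 of 6 tumours, as were 1.57% of genes, with Gzmc at 2334 against 1043 CPM in the parental tumour and Gzmf at 648 against 199.9 in EM3. Gzmd and Gzme were in 4 of 6 (3.47% of genes). Nkg7 (283 CPM in the parental tumour, 398 in M, 739.5 in EM2, 901 in EM1, 1225 in EM3 and 1561 in E) and Gzmk stayed within 2-fold in 6 of 6 tumours, as did 91.1% of genes, and Gzma, Gzmb and Prf1 in 5 of 6. M had the highest Gzmf of the Total libraries, 1300.4 CPM, but only 25.5 in the CD45 library, so the order of tumours for this gene depended on the library; bead enrichment and the annotation of each library cannot be told apart for that difference.

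Gzmb of the Total T/NK class was 443 CPM in the parental tumour, 459 in EM1, 541 in EM2, 662 in EM3, 885 in E and 1327 in M, with M highest. In M, 44.4% of these UMIs lay in 45 cells with at least 2 UMIs of mast cell or basophil genes and no Cd3 UMI, and without them Gzmb was 788 CPM; the same cells also held 189 of the 321 Prf1 UMIs of the class, so what they are is not settled. The other 5 tumours had 0.171% to 12.3% of Gzmb UMIs in such cells. The genes used to pick these cells include those named below as added after cells rich in Gzmb had been seen. The shares are therefore a description, and shares with the preset genes alone were not computed. By the rule of at least 10 UMIs of the preset mast cell list and no Cd3 UMI, the M Total library had 4 cells, with 18 Gzmb UMIs. Outside the T and NK classes of all 12 libraries, 26 cells had at least 20 Gzmb UMIs, 21 to 257 each. Of these, 22 had at least 2 UMIs of mast cell or basophil genes (Cpa3, Mcpt4, Mcpt8, Tpsb2 and Ms4a2, with Hdc, Cyp11a1, Cd200r3, Gata2, Mcpt1, Tpsab1 and Cma1 added after these cells had been seen) and 25 had no Prf1 UMI. With the 5 genes not added later, 14 of the 26 had at least 2 UMIs. Those of the 26 that came from CD45 libraries were all annotated T/Myeloid Hybrid. The cell with 257 Gzmb UMIs was annotated as a B cell in E, held 79 UMIs of the mast cell list, and made up 95.5% of the Gzmb UMIs of that class (333 CPM). Independently of Gzmb, 37 cells had at least 10 UMIs of the mast cell list and no Cd3 UMI; 12 of them (32.4%) held Gzmb, 485 UMIs in all, with 0 Prf1 and 2 Nkg7 UMIs. The same B-annotated cell of E and 2 macrophage-annotated cells, with 101 UMIs in EM3 and 91 in E, held 449 of the 485.

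Among non-immune classes of the Total libraries, tumour cells had Gzmb at 0.519 to 6.40 CPM and Prf1 at 0.184 to 1.36 CPM. Fibroblasts of E had Gzmb at 163 CPM and Gzmf at 84.5, and their T cell markers summed to 750.2 CPM, the highest of the 6 tumours (77.2 to 750.2). The part of those markers in the values of E was not tested. Fibroblasts of EM2 had Gzme at 53.4 and Gzmd at 36.5 CPM, with the lowest T marker sum of the 6 tumours, 77.2 CPM, while T/NK cells of that library had Gzme at 57.5 and Gzmd at 135 CPM.

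The genes most like each member were sought over 77 sums of class and tumour in the CD45 libraries, by Pearson's r of log2(CPM + 10); sums of 1 library share its depth, and r is given as a description. Gzma was most like Eomes (0.92) and Xcl1 (0.90), and Prf1 like Eomes (0.92) and Klre1 (0.88). Nkg7 was closest to Klrc1 (0.93) and Tiprl (0.93), and Gzmk to Ppp2r2c (0.83) and Nkg7 (0.77). Gzmb had Rgs16 (0.88), Sytl3 (0.87) and Ikzf2 (0.86), the last a factor of regulatory T cells. Gzmd and Gzme were most like each other (0.96), Gzmc was most like Fhl2 (0.80) and Ncr1 (0.78), and Gzmf like Slc16a11 (0.76) and Fam178b (0.74).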

How the data were processed

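The deposited tables hold UMI counts per gene and cell, which the authors made with Cell Ranger on mm10, per the submitters' processing notes, and the fewest genes in a deposited cell ranged from 200 to 650 over the libraries. The labels name both a fixed-RNA preparation kit and 3′ reagents. Libraries of a well shared the first 16 bases of barcodes but no whole barcode, the layout of multiplexed fixed-RNA probe barcodes. Classes came from the authors' deposited annotation: the broader column, with T cells split by the finer one. Doublets were called with scrublet in scanpy 1.11.5 and left out (2637 of 115612 cells, 2.28%). Counts were summed per class and library and scaled to CPM; the range of depth over the libraries is given in the report. With 1 tumour per group no test was made: sums carry exact Poisson 95% intervals, shares exact Clopper-Pearson intervals, and a gene with at least 50 CPM in either sum was called when its log2 ratio of (CPM + 10) was at least 1 in size with intervals apart. Classes under 20 cells were not compared. Pairs of genes in cells were counted after thinning to 1000 UMIs, with cells under 1000 UMIs left out. All 9 members are named, the pathway list by its calls, and 3 most similar genes per member were listed. The members and lists were chosen with earlier results of these data known. Scripts used Python 3.11.15, numpy 2.4.6, pandas 2.3.3, scipy 1.17.1, biopython 1.88 and matplotlib 3.10.9, and were tested on simulated data. Alternatives were the pseudocount, the filters on genes and on cells, doublets kept, the weighting of cells, the scaling, the class definition, the library, the thinning depth and, added after the data had been seen, leaving out the richest cell.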

Additional observations from a re-analysis of the deposited data

Results flagged for a closer look

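Gzma moved in opposite directions in both cytotoxic classes between M and E. Its log2 ratio of M over E was −2.03 in NK cells and 1.17 in Gzmb+ Cd8+ T cells, a difference of −3.20, which drew attention because the intervals of both classes lay on opposite sides of 0. The difference was not tested, since each clone is 1 tumour, and without the richest cell the ratio in CD8 T cells was −0.20. With cells gated by markers, Gzma was called lower in M in both classes of the Total libraries and was not called in CD8 T cells of the CD45 libraries.

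Gzmc did the same between EM3 and E, within 1 capture well. Its log2 ratio was −2.96 in NK cells and 1.56 in Gzmb+ Cd8+ T cells, a difference of −4.51. This difference was not tested either, and without the richest cell of each tumour the NK ratio was −3.97. Few NK cells lie behind it: the richest 5 held 96.7% in E and 94.2% in EM3 of the UMIs of Gzmc to Gzmf together. With cells gated by markers in the Total libraries, Gzmc was called in neither class, while CD8 T cells gated in the CD45 libraries kept the higher call.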

How the results depend on the processing

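Counts of called members stayed within 1.5 times, and co-detection ratios within their intervals, in 65 of 75 alternatives. The count does not follow which members were called. Among the 65, NK cells of M over E had 6 calls with the Total gate, 3 of them shared with the main 4. Gzmb+ Cd8+ T cells of M over E had 3 calls without the richest cell, 2 of them shared with the main 4. With classes replaced by a marker gate in the Total libraries, NK cells of EM3 over E had 5 called members in place of 3, Gzmb+ Cd8+ T cells had 7 in place of 4 in M over E and 3 in place of 5 in EM1 over EM2, and 5 members in place of 2 were higher in NK than in CD8 T cells of every tumour compared. The same gate in the CD45 libraries gave 2 in M over E and 2 in EM1 over EM2. The share of all genes called was counted for the main setting only. Nothing particular to the members is therefore read from the counts of the alternatives. Taking NK cells from the finer annotation column left 0 members higher in NK cells in every tumour; that column adds cells which the broader one calls other myeloid. The single NK call of EM1 over EM2 (Gzmc) became 0 with the mean of single-cell CPM and 0 without the richest cell, and without that cell 1 member, Gzma, was higher in NK cells throughout. Ratios of single members were scored only for doublets kept, the filter on cells, the weighting of cells, the scaling and the richest cell. The marker gates, the Total libraries and the finer annotation column are not among these 155 alternative ratios. Of the 155, 146 moved by less than their interval allowed and 7 moved more. Another 2, called ratios, changed sign: Gzma (−0.20) and Gzmf (−1.32) in Gzmb+ Cd8+ T cells of M over E without the richest cell. Among the 7, Gzme in NK cells of EM3 over E, not called, went from 0.45 to −1.78 without that cell; the cause of the other changes was not tested. Co-detection of Gzma with Gzmb in NK cells ranged from 1.26 to 1.53 times the expected number, and of Prf1 with Gzmb in CD8 T cells from 1.14 to 1.57. The gate left too few NK cells (under 20 in an arm) in the CD45 libraries for 3 contrasts and in the Total libraries for EM1 over EM2, and these were not run. No paired analysis was possible between clones because each had 1 tumour and the labels carry no replicate numbers; classes and libraries of a tumour were compared by counts of tumours, with no paired test run. The small number of NK cells, 38 to 132 per tumour, limits what can be read from Gzmc to Gzmf.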
